A study of Mus musculus with 6 samples.

Results

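The 40 genes described here are genes of neuronal differentiation and of the neuronal cytoskeleton, measured in 6 mouse neural stem cell lines. They were chosen by name, and each was represented by its single-gene probe set of highest mean signal over the 6 arrays. All 40 had such a probe set, out of 18193 genes that the arrays covered. They fall into 11 genes of neuroblasts and newborn neurons, 19 of axon growth and the cytoskeleton, and 10 of the synapse and of transmitter identity. Each line was hybridised to 1 Affymetrix array, with 3 lines labelled as null for FoxO and 3 labelled WT. The series calls the 6 lines independent, and p-values below measure the spread between them. The labels name no treatment, strain, age, passage or medium, and they do not say which FoxO genes were removed or how. Published work of this title concerns mice in which Foxo1, Foxo3 and Foxo4 were deleted by a Cre recombinase driven from the human GFAP promoter, which acts in neural progenitors and astrocytes. FoxO proteins are transcription factors that insulin and growth factor signals keep out of the nucleus. Of 9 probe sets for Foxo1, Foxo3 and Foxo4, 8 gave a higher mean log2 value under the FoxO-null label, and for 5 each FoxO-null array exceeded each wild-type array. A probe set outside a deleted exon checks nothing, and where these lie was not known here. These signals, mostly higher under the FoxO-null label, could therefore not check it. Every direction below refers to lines by their label and not by a checked genotype. Log2 differences are FoxO-null minus wild-type, ± the standard error.

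Neural stem cells divide and give rise to neuroblasts, which exit the cell cycle, migrate and extend neurites. Neuroblasts switch on doublecortin, class III beta-tubulin and the neuronal RNA-binding Elavl proteins. Growing axons then add growth cone proteins, microtubule-associated proteins and neurofilaments, and synaptic vesicle and transmitter genes follow as neurons mature. Several of the cytoskeletal genes, among them Stmn1, Map2 and the Dpysl genes, are also transcribed in dividing progenitors.

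Array medians of the MAS5 signal, a linear brightness value, lay between 25.5 and 32.8. The background of each array was taken as the highest of its 27 Bacillus subtilis control probe sets, which match no mouse transcript. It was 19.2, 27.6 and 26.9 in lines 1 to 3 labelled FoxO-null and 14.4, 15.8 and 19.1 in lines 1 to 3 labelled wild-type, so it was lower in the latter group. All 8 neural stem cell markers checked (Nes, Sox2, Vim, Fabp7, Prom1, Msi1, Pax6 and Slc1a3) read above it on all 6 arrays. Of 8 microglial markers 1 did so, of 5 endothelial markers 0, and of 7 fibroblast and pericyte markers 2. Genes were compared in a limma fit across 12663 genes that passed a filter on low signals, on the scale log2(signal + 5.94), and called at a Benjamini-Hochberg adjusted p under 0.05. In that fit 5 genes were called (Ccbe1, Cnp, Foxo4, Hes5 and S100a1), and none is among the 40. The wild-type 1 array read 211 for the 5′ probe set of 18S ribosomal RNA, against 23.5 to 38.9 on the other arrays.

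Transcripts of most of the neuronal genes were detected in these dividing cultures. Of the 40 genes, 32 read above the bacterial controls on all 6 arrays, or 80.0%, against 55.7% of all genes on the arrays. This held for 9 of 11 neuroblast genes, 15 of 19 axon growth genes and 8 of 10 synapse genes. The signal was at least 2-fold above the controls on every array for 23 genes and at least 10-fold for 13. The latter were Cd24a, Stmn1 and Ncam1 among neuroblast genes and Gap43, Stmn3, Dpysl2, Dpysl3, Crmp1, Map2, Mapt, Nrcam, Uchl1 and Rtn1 among axon growth genes. Because probe sets bind with different strength, signals of different genes were not set against each other, and the plot of signals by gene is to be read along each row.

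**Figure D1:**
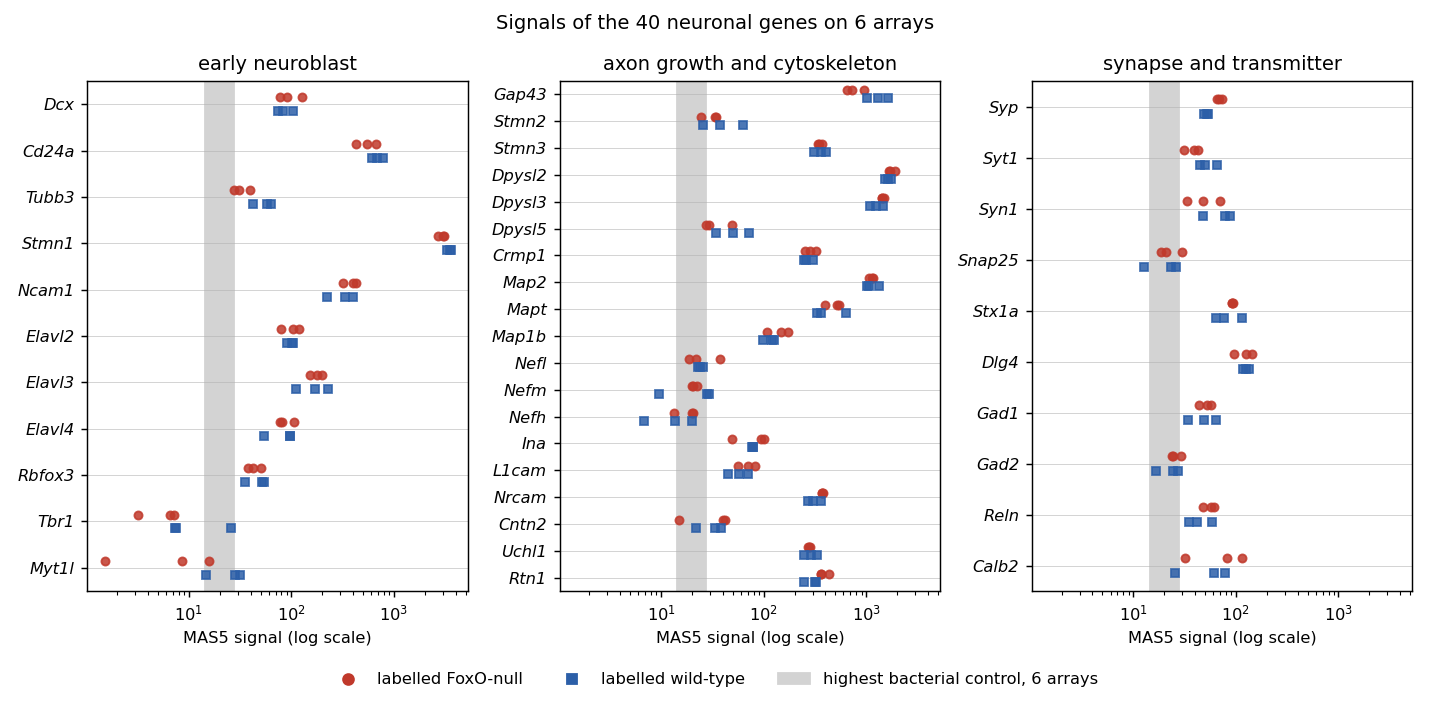
MAS5 signals (log scale) of the 40 neuronal genes in the 3 lines labelled FoxO-null (circles) and the 3 labelled wild-type (squares), 1 point per array, with the range of the highest bacterial control, 14.4 to 27.6, shaded. The groups intermix in most rows, and Tbr1, Myt1l, the neurofilament genes Nefl, Nefm and Nefh, Snap25 and Gad2 lie in or near the shaded range.

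The 8 genes that did not clear the controls throughout were 2 neuroblast, 4 axon growth and 2 synapse genes. Tbr1, a transcription factor of cortical projection neurons, read above them on 1 array, and the neuronal transcription factor gene Myt1l on 3. Among neurofilament subunits, which fill axons, Nefl cleared them on 5 arrays, Nefm on 3 and Nefh on 2. The axonal adhesion gene Cntn2 did so on 5 arrays, the synaptic membrane fusion gene Snap25 on 3 and the GABA-synthesising enzyme gene Gad2 on 4. Snap25 read 30.0, 20.9 and 18.6 in lines labelled FoxO-null and 23.5, 26.3 and 12.6 in lines labelled wild-type, with groups that overlap (log2 difference 0.14 ± 0.39 SE, limma adjusted p 0.936). Tbr1 read 3.18, 7.18 and 6.53 against 7.39, 7.57 and 25.8. Its groups did not overlap, but the wild-type 3 array alone cleared its control, and the gene was too dim to pass the filter. Myt1l read 8.56, 15.7 and 1.51 against 14.8, 31.5 and 28.0, below the control on every FoxO-null array and above it on every wild-type array. The FoxO-null controls themselves reach 27.6, so no fold is given, and Myt1l did not pass the filter either. In the fit of all probe sets without the filter, given below, Myt1l had a limma p of 0.0411 (adjusted p 0.669). Tbr1 had a limma p of 0.187 there (adjusted p 0.817). In all, 35 genes cleared the controls on the 3 wild-type arrays and 32 on the 3 FoxO-null arrays. Over all 18193 genes the counts differed in the same direction, 11341 on the 3 wild-type arrays and 10399 on the 3 FoxO-null arrays. The part played by the lower wild-type background was not tested.

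Promoter windows from RefSeq (GRCm38.p6), from 250 bases before to 50 after each transcript start, were found for 27 of the 40 genes, 47 windows in all. They were searched on both strands for the E-box CANNTG, bound by proneural factors, and for the FoxO core motif GTAAACA. An E-box lay in 32 of the 47 windows, and in 72.3% of 32851 windows of all genes. The FoxO motif lay in 1 of the 47 and in 3.65% of all windows. The windows of Tubb3, Nrcam and Syp are shown because these are the tested members with 1 window whose groups did not overlap, with any E-box in capitals, and the Myt1l window is shown because it alone holds the FoxO motif, there in capitals.
Tubb3 (chr8:123411303-123411602, + strand): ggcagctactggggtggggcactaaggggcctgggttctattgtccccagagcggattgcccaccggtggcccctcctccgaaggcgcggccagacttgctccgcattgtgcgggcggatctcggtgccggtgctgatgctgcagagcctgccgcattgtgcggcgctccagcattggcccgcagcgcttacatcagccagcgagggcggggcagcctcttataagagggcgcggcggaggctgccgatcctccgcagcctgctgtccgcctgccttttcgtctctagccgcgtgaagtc
Nrcam (chr12:44328635-44328934, + strand): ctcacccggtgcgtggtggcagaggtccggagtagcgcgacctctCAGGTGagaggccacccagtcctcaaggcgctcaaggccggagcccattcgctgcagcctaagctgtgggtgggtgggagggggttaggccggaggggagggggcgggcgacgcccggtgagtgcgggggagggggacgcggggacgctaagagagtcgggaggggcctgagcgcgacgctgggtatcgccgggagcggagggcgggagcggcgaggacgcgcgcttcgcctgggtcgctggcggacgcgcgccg
Syp (chrX:7638330-7638629, + strand): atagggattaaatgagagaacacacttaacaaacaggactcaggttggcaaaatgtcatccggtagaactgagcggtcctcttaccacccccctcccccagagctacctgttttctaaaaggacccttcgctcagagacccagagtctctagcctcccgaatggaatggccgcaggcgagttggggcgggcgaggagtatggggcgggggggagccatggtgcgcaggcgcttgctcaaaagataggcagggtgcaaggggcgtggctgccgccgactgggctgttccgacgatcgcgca
Myt1l (chr12:29534655-29534954, + strand): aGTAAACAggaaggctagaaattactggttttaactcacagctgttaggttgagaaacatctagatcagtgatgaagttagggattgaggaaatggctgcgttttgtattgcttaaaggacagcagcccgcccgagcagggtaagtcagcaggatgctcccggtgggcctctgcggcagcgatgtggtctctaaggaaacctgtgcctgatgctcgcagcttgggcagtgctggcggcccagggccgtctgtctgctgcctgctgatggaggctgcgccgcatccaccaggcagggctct
The Tubb3 and Syp windows hold no E-box, and the Nrcam window holds 1. A match describes the letters in these windows and shows no binding. A window without one says nothing of the factor.

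None of the 40 genes passed the limma threshold between the groups, where the background of calls was 0.0395% of 12663 genes. After the filter 37 were tested, and 5 of them had an unadjusted limma p under 0.05, 4 with a negative difference (Gap43, Tubb3, Cd24a and Stmn1) and 1 with a positive one (Rtn1). That is 13.5% of the members, against 10.2% of all genes tested, of which 4.90% had a negative and 5.31% a positive difference at that p. The 3 FoxO-null lines lay wholly apart from the 3 wild-type lines for 7 of the 37, or 18.9%, against 16.0% of all genes. Of the 7, 4 were lower and 3 higher in the FoxO-null lines, where all genes gave 7.93% and 8.08%. For 35 of the 37 the estimated difference was under 0.5 on the log2 scale, that is under 1.41-fold, as for 89.1% of all genes. The count of 5 became 1 when wild-type 1, whose array had the high 18S signal, was left out, and 2 when FoxO-null 1 was left out. Leaving out each array in turn gave counts from 1 to 7, and the part of the 18S signal was not tested.

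**Figure D2:**
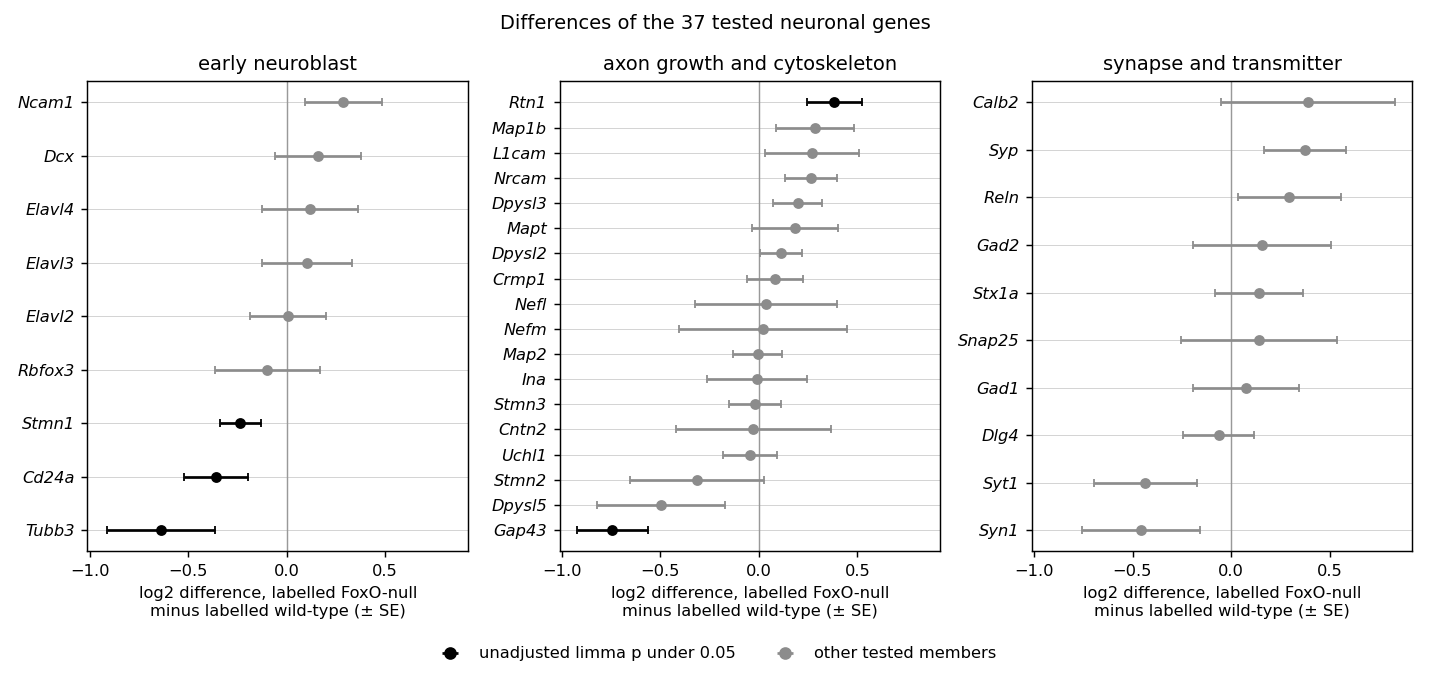
Log2 difference (labelled FoxO-null minus labelled wild-type) with its standard error from limma, for the 37 tested neuronal genes in 3 panels. Black points mark the 5 genes with an unadjusted p under 0.05; the estimates run from -0.74 for Gap43 to 0.39 for Calb2.

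Among the neuroblast genes the estimates were split, with 5 of 9 tested members positive, 4 negative and a median log2 difference of 0.0078, against 0.0099 for all genes. The median member stood at -0.15, -0.080 and 0.21 relative to its 6-line mean in lines labelled FoxO-null and at 0.065, 0.054 and 0.16 in lines labelled wild-type, so the groups overlapped. Tubb3, the class III beta-tubulin of young neurons, read 27.5, 31.1 and 39.6 in lines labelled FoxO-null and 62.9, 58.2 and 42.1 in lines labelled wild-type. All 3 wild-type signals were above all 3 FoxO-null signals, the nearest pair being 42.1 and 39.6. The log2 difference was -0.64 ± 0.27, a ratio of 0.643 (limma p 0.0397, adjusted p 0.455). The lowest of these signals was 1.13 times the bacterial control of its array, so Tubb3 was measured near background in the lines labelled FoxO-null.

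Stmn1, a microtubule-destabilising protein that is abundant in dividing cells as well as in young neurons, read 2703, 3014 and 3106 against 3492, 3305 and 3570. The groups did not overlap, and the difference was small at -0.23 ± 0.11, a ratio of 0.850 (limma p 0.0488, adjusted p 0.486). Cd24a, a surface protein of neuroblasts, read 547, 666 and 424 against 777, 688 and 613. FoxO-null 2 lay inside the wild-type range, and the difference was -0.36 ± 0.16 (limma p 0.0470, adjusted p 0.481). Beside Stmn1, 7 of 7 measured markers of dividing cells had negative differences with a median of -0.30. Of these 7, 6 had an unadjusted limma p under 0.05 and 0 passed the threshold, where 4.90% of all genes tested had a negative difference at that p. The summed signal of these markers was 9050 to 10125 in lines labelled FoxO-null and 11644 to 12541 in lines labelled wild-type. Its part in the Stmn1 value was not tested.

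Dcx, the microtubule-binding doublecortin that marks migrating neuroblasts, read above the controls on every array. It read 91.5, 78.1 and 126.6 in lines labelled FoxO-null and 83.5, 74.3 and 102.5 in lines labelled wild-type. These ranges overlap, and the difference of 0.16 ± 0.22 had a 95% interval from -0.32 to 0.63 (limma adjusted p 0.847). Rbfox3, which encodes the nuclear antigen NeuN of postmitotic neurons, read 37.4, 42.0 and 50.7 against 35.6, 53.7 and 52.2, with a difference of -0.098 ± 0.27 (limma adjusted p 0.934). The Elavl genes encode RNA-binding proteins that stabilise neuronal messages. Elavl2, Elavl3 and Elavl4 cleared the controls on every array, with differences of 0.0078, 0.10 and 0.12 and limma adjusted p of 0.910 or more. Ncam1, the neural cell adhesion molecule, stood at 0.29 ± 0.19 (limma adjusted p 0.647), with FoxO-null signals of 320 to 426 and wild-type signals of 223 to 396.

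Among the axon growth genes, Gap43 had the smallest p of the 40. This growth cone phosphoprotein links membrane signals to actin in extending axons. It read 725, 954 and 652 in lines labelled FoxO-null and 1015, 1294 and 1626 in lines labelled wild-type. Every wild-type line lay above every FoxO-null line, with means of 1311 ± 306 and 777 ± 158 (SD, n = 3 each, limma fit). The log2 difference was -0.74 ± 0.18, a ratio of 0.597 with a 95% interval from -1.14 to -0.35 on the log2 scale (limma p 0.00153, adjusted p 0.196). Over the 16 alternative settings its difference ran from -0.91 to -0.58, with an unadjusted p under 0.05 in each and a limma adjusted p of 0.103 to 0.735. Gap43 had 1 probe set, so no further probe set bears on this value.

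Over the axon growth genes the estimates went both ways. Of 18 tested, 10 were positive and 8 negative, and the median was 0.029. Rtn1, a reticulon of the endoplasmic reticulum in neurons, read 430, 363 and 358 against 246, 315 and 320. The groups did not overlap, and the difference was 0.38 ± 0.14, a ratio of 1.31 (limma p 0.0199, adjusted p 0.383). Nrcam, an adhesion molecule of axon guidance and nodes, read 374, 377 and 372 against 271, 303 and 362. The FoxO-null lines differed among themselves by an SD of 2.52 and the wild-type lines by 45.8, and the difference was 0.27 ± 0.13 (limma p 0.0668, adjusted p 0.529). L1cam, a related adhesion molecule, stood at 0.27 ± 0.24 with overlapping groups (limma adjusted p 0.747).

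**Figure D3:**
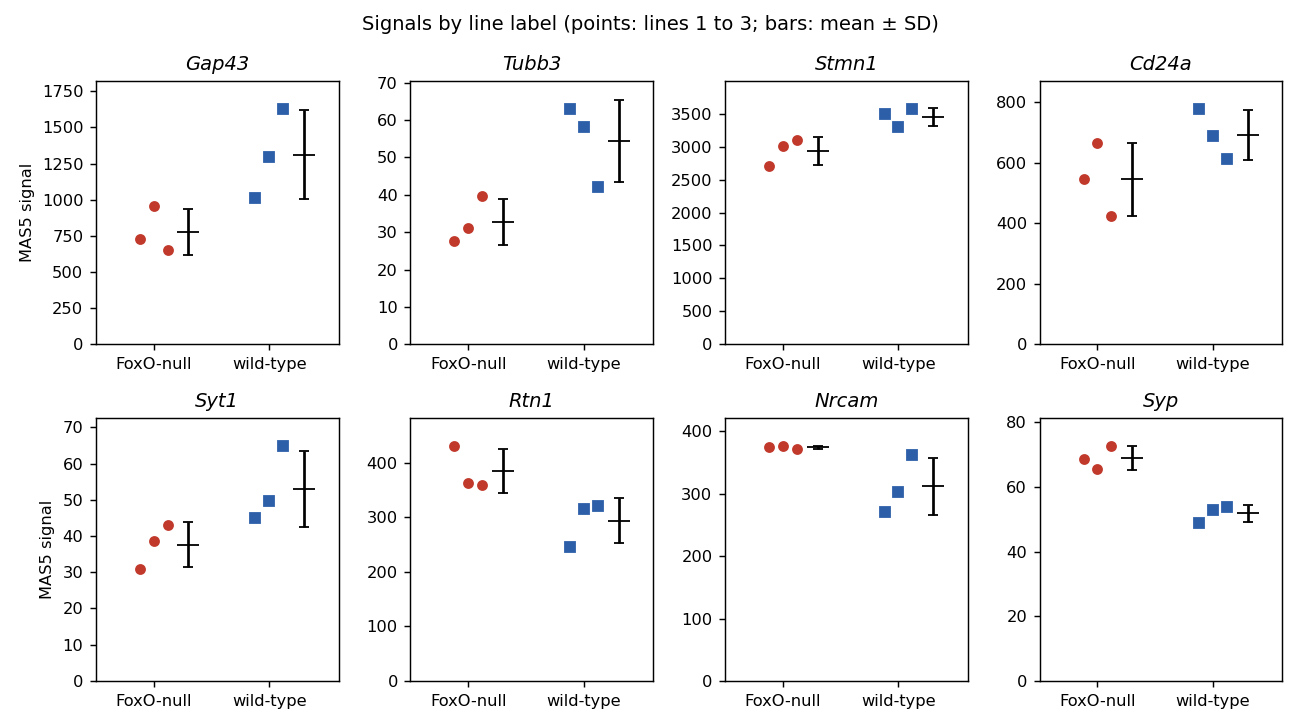
MAS5 signals of 8 members by line label, 1 point per line and mean ± SD beside them, each axis starting at 0. Gap43, Tubb3, Stmn1 and Syt1 had all wild-type lines higher, Rtn1, Nrcam and Syp all FoxO-null lines higher, and the brightest Cd24a probe set, shown here, overlapped.

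None of the stathmin and CRMP genes passed the test. Stmn2 and Stmn3 are neuronal relatives of Stmn1 that bind tubulin in growth cones. Stmn3 read 341, 343 and 373 against 309, 362 and 407, with a difference of -0.020 ± 0.13 and a 95% interval from -0.31 to 0.27 (limma adjusted p 0.975). Stmn2 read 24.7, 34.5 and 33.6 against 62.4, 37.4 and 25.9. Wild-type 1 was the highest of these and wild-type 3 lay among the FoxO-null lines, and the difference was -0.32 ± 0.34 (limma adjusted p 0.800).

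The CRMP proteins, encoded by Crmp1 and the Dpysl genes, carry semaphorin signals to microtubules. Dpysl2 read 1903, 1723 and 1682 against 1532, 1626 and 1758, and its difference of 0.11 ± 0.11 had an interval from -0.12 to 0.35 (limma adjusted p 0.774). Dpysl3 read 1416, 1499 and 1418 against 1239, 1094 and 1473 (0.20 ± 0.12, limma adjusted p 0.620). Crmp1 read 251, 286 and 320 against 246, 259 and 305 (0.081 ± 0.14, limma adjusted p 0.885). Dpysl5 read 49.0, 29.2 and 27.2 against 34.7, 72.3 and 50.8, a difference of -0.50 ± 0.32 (limma adjusted p 0.633). Relative to the bacterial control of its array, the lowest Dpysl5 ratio was 1.01, so it was measured near background. All 4 of these CRMP genes had overlapping groups at their brightest probe set.

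Of the microtubule-associated protein genes, Map2, the dendritic member, read 1147, 1174 and 1072 against 1346, 1028 and 1054. Its difference was -0.0050 ± 0.12, with a 95% interval from -0.28 to 0.27 (limma adjusted p 0.993). Mapt, which encodes the axonal protein tau, stood at 0.18 ± 0.22 and Map1b at 0.29 ± 0.20, both with overlapping groups. The filament gene Ina, for alpha-internexin, stood at -0.0083 ± 0.25 and Uchl1, an abundant neuronal ubiquitin hydrolase, at -0.046 ± 0.14. Nefl and Nefm, near background, had standard errors of 0.36 and 0.43, so only large changes could have been seen in them.

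The 10 synapse and transmitter genes were all tested and none had an unadjusted limma p under 0.05, although 7 of 10 estimates were positive and the median was 0.14. Leaving out wild-type 1, 2 or 3 gave a median of 0.027, 0.27 or -0.019. Syp, which encodes the vesicle membrane protein synaptophysin, read 68.6, 65.4 and 72.6 against 48.8, 52.9 and 53.7. The groups lay apart, with a difference of 0.37 ± 0.21 (limma p 0.0962, adjusted p 0.568). Syt1, the calcium sensor of vesicle release, lay apart in the opposite direction at 31.0, 38.6 and 43.2 against 44.9, 49.5 and 64.9 (-0.43 ± 0.26, limma p 0.125, adjusted p 0.610). Relative to the bacterial control of its array, the lowest Syt1 ratio was 1.40, near background. Syn1, a vesicle-tethering synapsin, stood at -0.46 ± 0.30 with overlapping groups (limma adjusted p 0.635).

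Transmitter identity genes overlapped between the groups. Gad1, the main GABA-synthesising enzyme, read 43.9, 51.9 and 56.7 against 34.1, 63.9 and 49.1 (0.077 ± 0.27, limma adjusted p 0.950). Reln, the secreted guidance protein of early cortical and interneurons, stood at 0.30 ± 0.26 and Calb2, the interneuron calcium buffer calretinin, at 0.39 ± 0.44. The membrane fusion gene Stx1a and the postsynaptic scaffold gene Dlg4 stood at 0.14 ± 0.22 and -0.063 ± 0.18. In these cultures a change in the number of cells of a neuronal type and a change in transcript per cell cannot be told apart. This holds in either direction, here and for any member above.

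The arrays carried 101 probe sets for the 40 genes, more than 1 for 30 of them. All 45037 probe sets other than controls were fitted together with no filter on low signals, and 0 of the 101 passed, where 0.00222% of all probe sets did. An unadjusted limma p under 0.05 was found for 11 of the 101, or 10.9%, against 7.24% of all probe sets in that fit, which includes many dim ones. Of 61 further probe sets, 30 read above the bacterial controls on all 6 arrays, and 24 of these had the sign of the probe set chosen for the gene. The groups lay apart for 5 of the 30, or 16.7%, against 16.4% of all probe sets that cleared the controls throughout; the 5 belong to Cd24a, Elavl3, Dpysl3 and, with 2, Mapt. Both probe sets of Stmn1 were negative, at -0.23 and -0.31, and so were all 3 of Cd24a, at -0.36, -0.29 and -0.11. The second of these Cd24a probe sets read 371, 400 and 356 in lines labelled FoxO-null and 503, 430 and 455 in lines labelled wild-type, so its groups lay apart where those of the brightest overlapped (-0.29 ± 0.12, limma p 0.0254, adjusted p 0.616). A further Elavl3 probe set read 60.2, 49.6 and 58.6 against 28.0, 44.8 and 45.0, also apart, at 0.48 ± 0.29 (limma adjusted p 0.778), beside 0.10 for the brightest and -0.19 for the other. The 3 probe sets of Nrcam that cleared the controls lay between 0.22 and 0.27, and the 3 of Dcx between 0.16 and 0.36. The second Syp probe set read above the controls on 2 arrays only and stood at -0.46 ± 0.54. Further Syt1 probe sets read above them on 2, 3 and 0 arrays and stood at -0.40, 0.55 and -0.22. Among other dim probe sets, the second of Nefl cleared the controls on 3 arrays, all wild-type. Its groups lay apart at -1.06 ± 0.42 (limma p 0.0279, adjusted p 0.627), beside 0.038 for the brightest. A Cntn2 probe set above the controls on 1 array lay apart the other way, at 1.61 ± 0.42 (limma p 0.00229, adjusted p 0.364), beside -0.027 for the brightest.

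**Figure D4:**
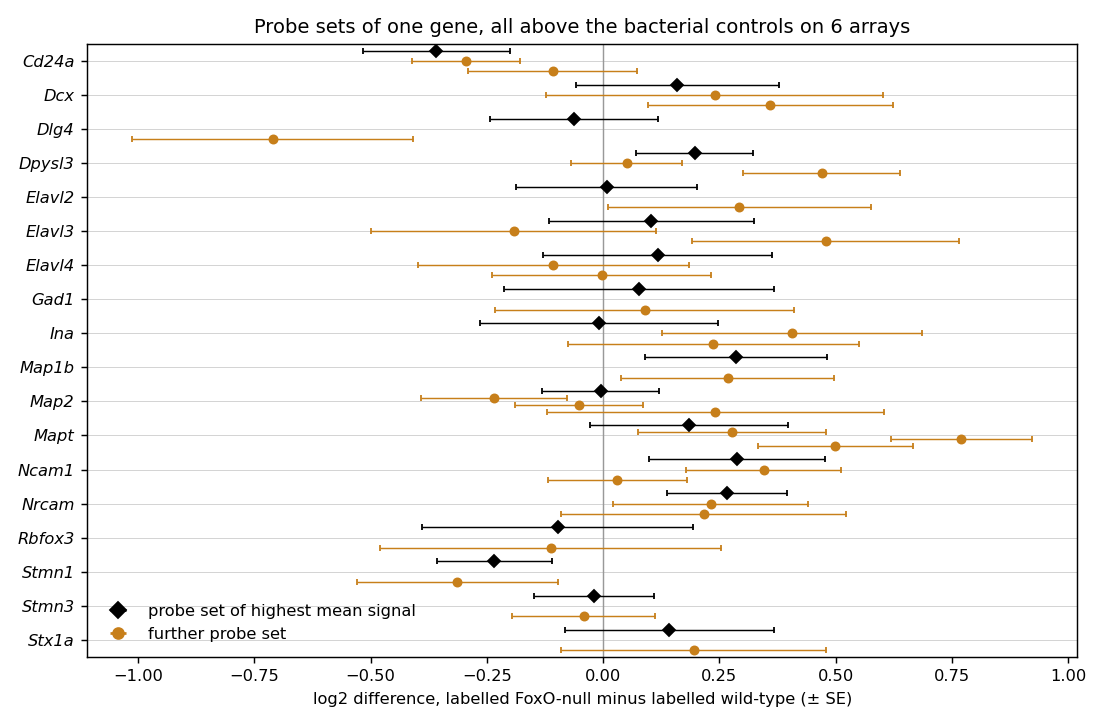
Log2 difference with its standard error for 48 probe sets of 18 neuronal genes, limited to probe sets above the bacterial controls on all 6 arrays; diamonds mark the probe set of highest mean signal, circles the others. For Mapt, 2 further probe sets stand at 0.77 and 0.50 beside 0.18 for the brightest, and for Dlg4 the probe sets stand at -0.063 and -0.71.

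For Mapt the value depended on the probe set read, a gene singled out here after its values were seen. Its further probe set of smallest p read 234, 242 and 263 in lines labelled FoxO-null and 131, 127 and 172 in lines labelled wild-type, a difference of 0.77 ± 0.15 with groups well apart. This was the smallest p of the 101 (limma p 2.6e-04, adjusted p 0.209 over all probe sets). Another stood at 0.50 ± 0.17 and also had all FoxO-null lines higher, one more at 0.28 ± 0.20, and the brightest at 0.18 ± 0.21, where wild-type 2 was the highest line at 632. Dlg4 had a second probe set at -0.71 ± 0.30 beside -0.063. For Dpysl3 a further probe set had all FoxO-null lines higher at 0.47 ± 0.17 (limma adjusted p 0.567), beside 0.20 and 0.051. Which transcript forms these probe sets detect was not examined.

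Beyond the 40, 75 other neuronal genes were listed by role, 72 had a probe set and 65 were tested. None passed the limma threshold, and 10 had an unadjusted p under 0.05, 8 with a positive and 2 with a negative difference, or 15.4% against 10.2% of all genes. The groups lay apart for 12 with FoxO-null higher and 2 with FoxO-null lower, where all genes gave 8.08% and 7.93%. The median was 0.072. Nfasc, an adhesion molecule of the axon initial segment that glia also make, stood at 0.74 ± 0.15, and the synapsin gene Syn2 at 0.80 ± 0.17 (limma adjusted p 0.137 each). Syt11, a synaptotagmin without calcium binding, stood at 0.90 ± 0.20 (limma adjusted p 0.179). Mapk8ip1, a kinase scaffold carried along axons, stood at 0.47 ± 0.11 (limma adjusted p 0.196) and Map1a, a microtubule-associated protein, at 0.53 ± 0.15 (limma adjusted p 0.280).

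Thy1, a surface glycoprotein of neurons and some other cells, had the largest estimate of these. It read 803, 546 and 315 in lines labelled FoxO-null and 40.1, 274.6 and 30.5 in lines labelled wild-type. Wild-type 2 lay close under FoxO-null 3, while the other wild-type lines were far below, and the difference was 2.75 ± 0.61 (limma adjusted p 0.179). Without wild-type 2 it was 3.67 with a limma adjusted p of 0.00350, and over the other 15 alternatives the adjusted p was 0.0688 to 0.735. Within the tubulin genes of these lists, Tubb2a stood at -0.33 ± 0.13, Tubb2b at 0.023 ± 0.16, Tubb4a at 0.23 ± 0.14 and Tuba1a at -0.069 ± 0.12.

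Most glial markers had positive differences beside these values. All 8 astrocyte markers were above the controls on every array. Of these, 7 had positive differences, with a median of 0.37. A positive difference with an unadjusted limma p under 0.05 was found for 4 of the 8, against 5.31% of all genes tested, and 0 passed the threshold. The summed signal of the astrocyte markers was 6573 to 7601 in lines labelled FoxO-null and 4550 to 5844 in lines labelled wild-type. The 8 neural stem cell markers also leaned this way, with 6 positive, 2 negative and a median of 0.25. Of these, 3 had a positive difference at that p and 0 passed the threshold. Of 10 oligodendrocyte lineage markers, 9 had a probe set and 8 were tested, 7 of them positive with a median of 0.51. A positive difference at that p was found for 5, and 1, Cnp, passed the threshold. The summed signal of the 9 was 15639 to 16544 against 12102 to 13627, and Mog, a marker of mature oligodendrocytes, cleared the controls on 0 arrays. The summed signal of the 40 neuronal genes was 12641 to 12965 against 12800 to 14204. Such sums weigh the brightest probe sets most. By gene, 22 of the 37 tested members had a positive and 15 a negative difference, with a median of 0.077. The part of the stem cell, glial and dividing cell markers in the neuronal values was not tested.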

How the data were processed

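Total RNA of 6 lines was measured on 6 arrays, 3 per group. The authors deposited intensity signals, and the submitters' processing notes name MAS5; its version and further steps are not given in the sources used here. The mean of each array after trimming 2% at each end was 100.0, so the authors' scaling was kept; 0 value columns were left out and no detection calls were used.

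Of 45101 probe sets, 64 were controls, 34945 had 1 gene, 932 several and 9160 none in the platform annotation. Symbols were updated by gene number, which matched the RefSeq table for 34754. For each gene the probe set of highest mean signal was kept. The offset of 5.94 is the 20th percentile of all values, and genes with a mean log2 value under the 40th percentile of non-control probe sets, a signal of 16.2, were left out. The fit used lmFit and eBayes with an intensity trend (limma 3.58.1, R 4.3.3), two-sided and without covariates, and was tested on simulated data. Single-value exact permutation tests of 3 against 3 cannot go below 0.1. No label says that lines sharing a number are paired.

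The members, gene lists and named genes were chosen with earlier results of these data known. Members with an unadjusted p under 0.05 or groups apart, and a fixed set including Dcx, Map2 and the stathmin and CRMP genes, are given in full. From the other neuronal lists the 6 genes of smallest p are named. Tubb2a, Tubb2b, Tubb4a, Tuba1a and the further probe sets were chosen after their values were seen. Alternatives were other offsets, no filter, quantile or median scaling, signals raised to the bacterial controls, other probe set rules, no trend, a replicate block and leaving out each array. Arrays limit precision by their number.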

Additional observations from a re-analysis of the deposited data

How the results depend on the processing

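None of the 40 genes passed the limma threshold under any of the 16 alternatives run. The count of members with an unadjusted limma p under 0.05, 5 as reported, was 3 with median centring and 3 without the intensity trend, and 1 to 7 when 1 array was left out; it was 4 with the replicate block, which changed no adjusted call of a member. Same-numbered lines of the 2 groups correlated at 0.023, 0.092 and 0.12 in their deviations from the group means, not all over 0.1, so the numbers were not taken as pairs, although 2 of 3 numbers correlated best with themselves. The count of all genes past the threshold, 5 as reported, was 1 with an offset of 1, no filter, quantile normalization or the mean over probe sets, 0 with median centring or without the trend, 13 with signals raised to the bacterial controls, and 0 to 11 with 1 array left out. The synapse median ran from -0.019 to 0.27 with 1 array left out. Signs turned for Map2 with quantile normalization (0.0061) and, with the mean over probe sets, for Rbfox3 (0.31) and Syp (-0.042). With 1 array left out the ranges that cross 0 were -0.024 to 0.30 for Dcx, -0.12 to 0.073 for Stmn3, -0.10 to 0.30 for Snap25, -0.0026 to 0.17 for Crmp1, -0.075 to 0.12 for Map2 and -0.13 to 0.27 for Gad1. The number of members above the bacterial controls, 32, was 28 against the highest control of any array and 32 or 33 with 1 array left out, alternatives chosen after seeing the data. The causes of these moves were not tested. Members near the bacterial controls could not be resolved at this signal.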

Other observations

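Over the 37 tested members the highest of the 6 lines read 1.24 to 4.53 times the lowest, a ratio that includes any difference between the labelled groups, with a median of 1.84 against 1.64 for all genes tested, and 12 members differed 2-fold or more. Calb2, the calcium buffer calretinin, was at the top of that range. It read 32.1, 82.1 and 114.6 in lines labelled FoxO-null and 25.3, 79.0 and 61.5 in lines labelled wild-type, so that the lowest line of each group was its line 1. Among other neuronal genes, Rab3a, a small GTPase of synaptic vesicles, read 536, 704 and 123 against 257, 593 and 194, with both lines 3 lowest, and Stmn4, a neuronal stathmin, read 47.6, 75.7 and 23.3 against 56.1, 21.8 and 7.90. These genes were picked after their values were seen.

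Other neuronal genes with an unadjusted limma p under 0.05 were Sox4, a transcription factor of neuronal commitment, at 0.36 ± 0.12, the granule protein gene Chgb at 0.82 ± 0.32 and the adhesion gene Chl1 at -0.60 ± 0.24, with limma adjusted p of 0.332, 0.408 and 0.434. Rest, the repressor that silences neuronal genes in non-neuronal cells, read 156, 209 and 185 against 164, 252 and 206 (-0.16 ± 0.18).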
